A study of Oryza sativa with 6 samples.

Results

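MicroRNA miR166 and its targets, the class III HD-ZIP genes, were followed together in nucellar projection cells of young rice seeds (Oryza sativa). The members were all probes whose name begins with osa-miR166 and all probes of 5 loci, OSHB1 (Os03g0109400), OSHB2 (Os10g0480200), OSHB3 (Os12g0612700), OSHB4 (Os03g0640800) and OSHB5 (Os01g0200300). This gave 39 miR166 probes and 20 class III HD-ZIP probes, 59 of the 42429 probes on the array, for 18 genes of 29870 when a hairpin is counted as a gene. The 6 arrays came from wild-type plants of the cultivar ZH11 and from lines 2 and 14 of A-OsMADS29, with 2 arrays in each of these 3 groups. Both lines have the ZH11 background, are labelled OsMADS29 mutants and were sampled, like wild type, at 3 days after flowering. The labels do not spell out the prefix A, do not say which part of OsMADS29 the lines alter, and give no number of plants or seeds for a sample. The cells were cut from fixed seeds by laser capture, and their RNA went through 2 rounds of amplification before 1-colour labelling.

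miR166 is a plant microRNA whose mature strand is cut from the 3' arm of a hairpin precursor. Paired to a site in the coding sequence of class III HD-ZIP messages, it directs their cleavage, and so limits where these homeodomain-leucine zipper factors act. In Arabidopsis, the class III HD-ZIP factors are known for the upper side of leaves, the shoot meristem and the pattern of vascular tissue. The nucellar projection, which belongs to the mother plant, lies beside the seed's vascular bundle and passes nutrients towards the endosperm.

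The 39 miR166 probes covered 13 hairpins, miR166a to miR166i and miR166k to miR166n, on 7 chromosomes, with 3 probes each, for the 5' flank, the mature sequence and the 3' flank. By the probe names, miR166c, miR166e, miR166i and miR166n are on chromosome 3, miR166d, miR166h and miR166k on chromosome 2, miR166a and miR166f on chromosome 10, and miR166b, miR166g, miR166l and miR166m on chromosomes 6, 12, 9 and 8. OSHB1 and OSHB4 are also on chromosome 3. Mature sequences of the family are nearly identical, so a mature probe may read several hairpins, and it cannot tell a mature microRNA from a precursor that holds the same bases. The labels do not say whether RNA as short as a mature microRNA was kept. Each probe had 2 spots per array, whose log2 signals differed by a median of 0.26 for the miR166 probes that passed the filter on dim signal and by up to 1.96.

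All signals below are log2 values relative to the 75th percentile of the array, so 0 is the signal that 75% of spots stayed under. Probes differ in how brightly they read a transcript, so values were compared between arrays and not between probes. A probe counted as well above background on an array where at least 0.5 of its spots carried the scanner software's mark for it. It passed the filter where it did so on both arrays of at least 1 group, and 32420 of the 42429 probes did. The brightest kept probe stood for a locus, which left 22283 loci and microRNA probes for the test. The share of probes well above background ran from 72.8% to 79.8% over the arrays, and 0 spots were saturated. Slide 1 held the wild-type and line 2 arrays and slide 2 held line 14, so line and slide cannot be told apart in any comparison with line 14. OsMADS29 (Os02g0170300, an ID set from general knowledge) was well above background on all 6 arrays, with wild type at 0.63 ± 0.35 (SD, n = 2), line 2 at 0.31 ± 0.83 (SD, n = 2) and line 14 at 0.08 ± 0.12 (SD, n = 2). It was not called different (limma adjusted p = 0.876 for both lines against wild type), so it does not settle whether the arrays match their labels. No list of tissue markers could be formed, since the files pair no locus with a name.

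Transcripts of all 5 class III HD-ZIP loci were well above background on all 6 arrays, and none was called different in the lines. Of their 20 probes, 19 were well above background on every array. The remaining probe (AK110678), which covers 5' UTR and coding sequence of OSHB1, was not well above background on any, although the other 5 probes of OSHB1 were on all 6. In limma, 0 of the 5 loci were called in both lines against wild type, where 0.144% of all features tested were called, and 0 of the 5 had an unadjusted p under 0.05, as 7.88% of all features did. Less RNA of a gene per cell and fewer cells that express it cannot be told apart in samples of many cells.

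OSHB1 encodes a class III HD-ZIP factor and was read by 5 usable probes. Its signal was 3.00 and 2.70 in wild type, 2.82 and 2.89 in line 2, and 2.81 and 3.18 in line 14. At this probe, which stands for the locus, the groups overlapped, with line 2 wholly inside the wild-type range. The lines averaged 0.07 above wild type (SE 0.26, 95% confidence interval -0.59 to 0.74, limma adjusted p = 0.974). Fitted singly, its 5 probes gave differences from 0.06 to 0.27. At AY554035, as at AK058915 of OSHB3, all 4 line arrays lay above both wild-type arrays. Of the 19 class III HD-ZIP probes seen on every array, 2 lay wholly above in this way and 0 wholly below. Among all 28451 probes seen on every array, 2063 lay above and 2168 below.

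OSHB2, of the same class, read 2.15 and 2.28 in wild type, 2.11 and 2.29 in line 2, and 2.21 and 2.92 in line 14. Line 14 replicate 2 stood above the other 5 arrays, which lay close together. The difference of the lines was 0.17 (SE 0.30, 95% confidence interval -0.60 to 0.93, limma adjusted p = 0.943), and its 5 probes gave 0.14 to 0.44.

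OSHB3 had the largest difference of the 5 loci in both lines. It read 0.72 and -0.37 in wild type, 0.63 and 0.77 in line 2, and 0.69 and 1.00 in line 14. The line arrays lay near wild-type replicate 1, and wild-type replicate 2 stood below all others. The difference was 0.59 (SE 0.38, 95% confidence interval -0.36 to 1.55, limma adjusted p = 0.809). It rested on that array, being 0.05 without wild-type replicate 2 and 1.14 without wild-type replicate 1. All 3 probes of the locus showed the low value in wild-type replicate 2, by 0.96 to 1.17 below replicate 1. Of all features tested, 11.5% had a gap between the wild-type arrays at least as low as that of OSHB3.

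OSHB4 read 1.97 and 1.51 in wild type, 1.63 and 1.64 in line 2, and 0.98 and 2.45 in line 14. The line 14 arrays were thus the lowest and the highest of the 6, while the line 2 arrays nearly coincided. The difference of the lines was -0.06 (SE 0.47, 95% confidence interval -1.24 to 1.11, limma adjusted p = 0.986). All 4 probes carried the gap between the line 14 arrays, from 1.45 to 1.65.

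OSHB5 had 2 usable probes. The brighter read -2.07 and -2.49 in wild type, -2.48 and -2.27 in line 2, and -2.29 and -1.20 in line 14. Only line 14 replicate 2 lay outside the wild-type range. The difference of the lines was 0.22 (SE 0.39, 95% confidence interval -0.76 to 1.20, limma adjusted p = 0.942), and the other probe (AY559050) gave -0.11.

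**Figure D1:**
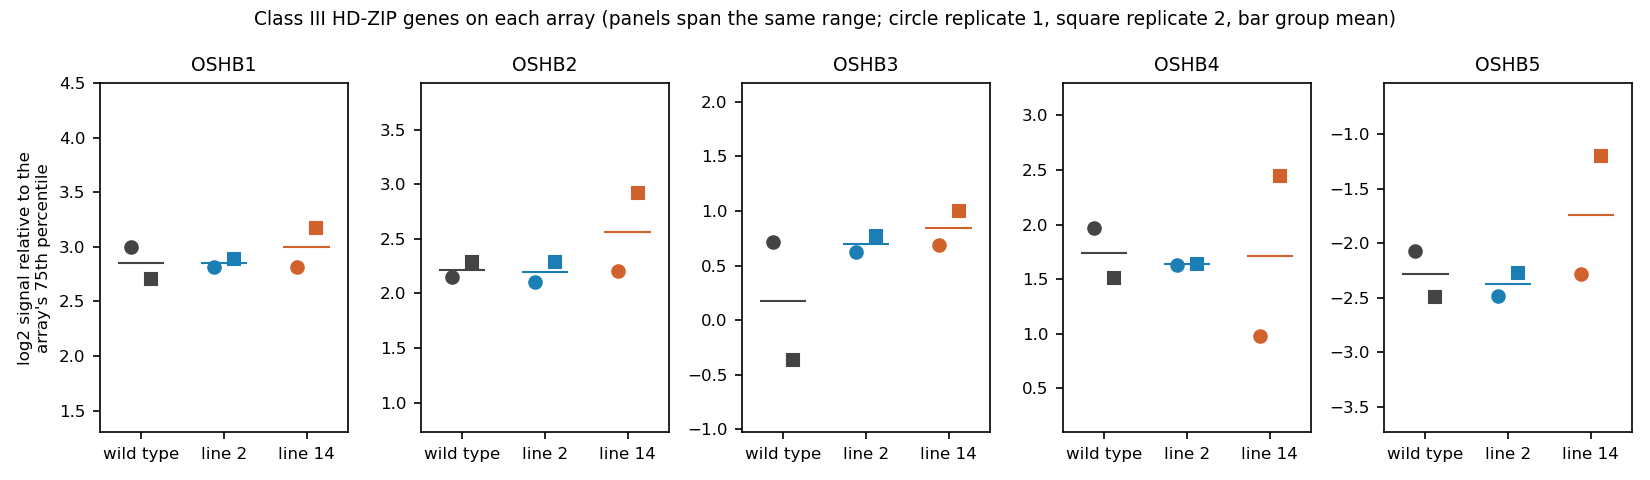
Log2 signal, with each array's 75th percentile at 0, (vertical axis) of OSHB1 to OSHB5 in wild type, line 2 and line 14. Circles are replicate 1, squares replicate 2, bars group means, and every panel spans the same range. The square of line 14 is the highest point in each of the 5 panels, and wild-type replicate 2 of OSHB3 stands apart at -0.37.

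Taken singly, neither line was called different from wild type at any of the 5 loci. In limma 0 of 5 were called in line 2, where 0.0224% of features were called, and 0 of 5 in line 14, where 0.0404% were, with 0 of 5 at an unadjusted p under 0.05 in either, a limit that 6.4% of all features passed in line 2 and 7.12% in line 14. The median log2 difference of the loci was -0.02 in line 2, with 3 of 5 lower, and 0.35 in line 14, with 1 of 5 lower. Over all features tested it was 0.01 in each line, with 49.3% lower in line 2 and 49.1% in line 14. The lines share the wild-type arrays in these comparisons. The comparison of line 14 with line 2 called 0 of the 5 loci in limma, as it did 0% of all features, and 0 of 5 had an unadjusted p under 0.05, where 3.46% of all features did. At the probe that stands for each locus, all 5 read higher in line 14, where 49.6% of all features read lower. The differences ran from 0.08 at OSHB4 to 0.63 at OSHB5, which had a 95% confidence interval of -0.50 to 1.76 (limma adjusted p = 0.9999). Not every probe followed, as 4 of the 19 usable probes read lower in line 14. These were 1 of 5 at OSHB2, 2 of 4 at OSHB4 and 1 of 2 at OSHB5.

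At 4 of the 5 loci, all but OSHB3, the largest gap between replicates was that of line 14. All 19 usable probes read higher in line 14 replicate 2 than in replicate 1, as did 18 of 19 in line 2 and 8 of 19 in wild type. Over all features tested, replicate 2 was the higher in 49.5% for line 14, 47.2% for line 2 and 51.0% for wild type. Probes of a locus read the same transcript and are not independent, so the 19 probes stand for 5 loci. Of all features, 4.65% had a gap between the line 14 arrays at least as high as the 1.47 of OSHB4, and 25.5% at least as high as the 0.36 of OSHB1.

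miR166 probes gave dim signals, and the larger number of them did not pass the filter. Of the 39, 19 passed and 20 did not; 6 were well above background on all 6 arrays and 7 on none. By region, 8 of the 13 probes of the 3' flank passed, 9 of the 13 mature probes and 2 of the 13 probes of the 5' flank. Of the 6 seen on every array, 5 were 3' flanks, those of miR166a, miR166b, miR166l, miR166m and miR166n, and 1 was the 5' flank of miR166l. The mature probes were above background on every array in 0 of 13 cases. Only miR166l and miR166m had all 3 of their probes kept, and miR166e, miR166g, miR166h and miR166i had none kept. The 20 probes left out read between -10.93 and -6.76.

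**Figure D2:**
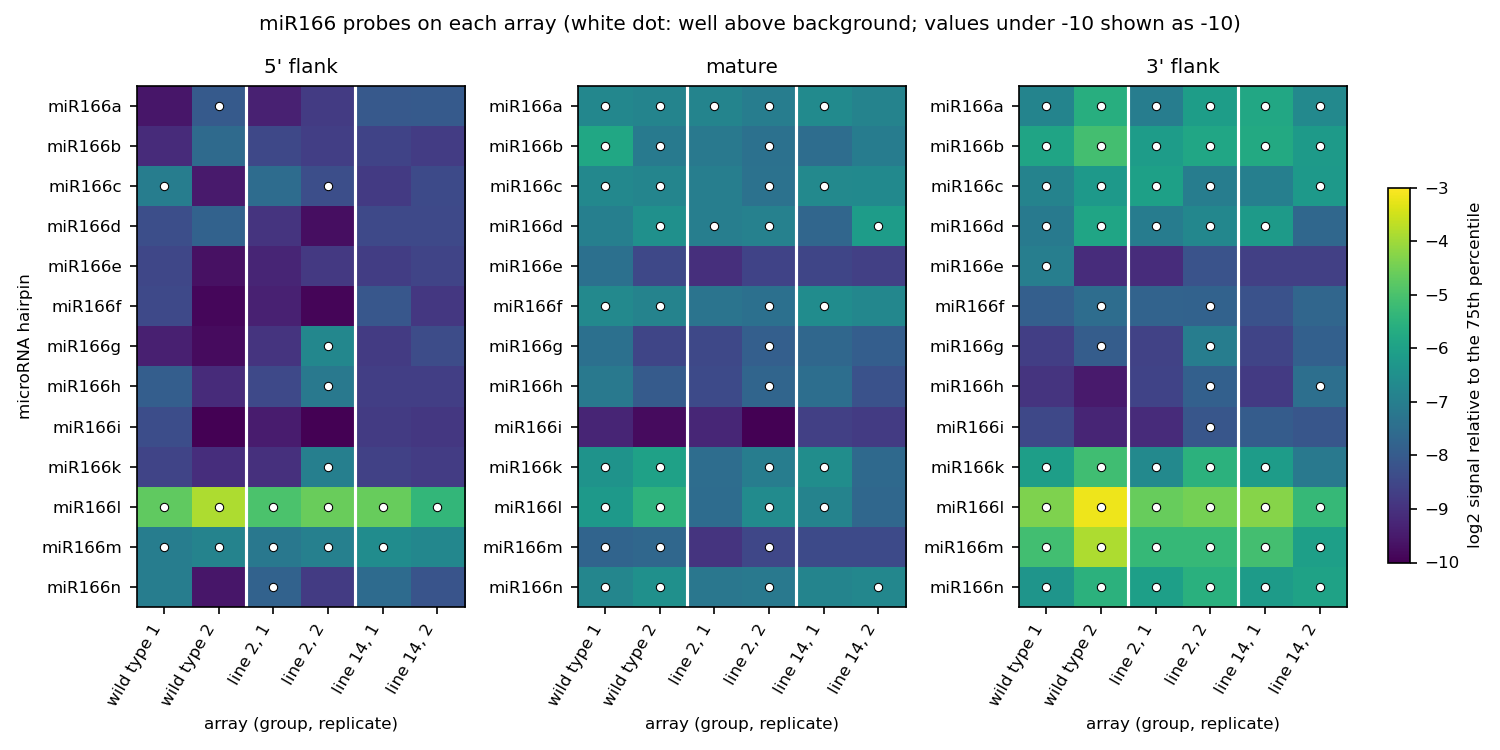
Log2 signal, with each array's 75th percentile at 0, (colour) of the 39 miR166 probes, by hairpin (rows) and array (columns), for the 5' flank, mature sequence and 3' flank. White dots mark arrays where the probe was well above background. The rows of miR166l and the 3' flank of miR166m carry dots on all 6 arrays for their flanks, while the mature probes lack dots on some arrays.

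The number of miR166 probes seen differed as much between replicates as between groups. Of 39, 20 and 22 were well above background in wild type, 13 and 29 in line 2, and 14 and 10 in line 14. Line 2 replicate 2 had the most and line 14 replicate 2 the fewest. For the mature probes alone the counts were 8 and 9 of 13 in wild type, 2 and 11 in line 2, and 5 and 2 in line 14. Line 2 replicate 2 also had the largest share of all probes well above background, 79.8%, and the line 14 arrays the smallest, 72.8% and 72.9%. Among the 471 probes of other microRNAs, 144 and 80 were well above background in wild type, 73 and 115 in line 2, and 66 and 70 in line 14. The part of these array differences in the miR166 counts was not tested.

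**Figure D3:**
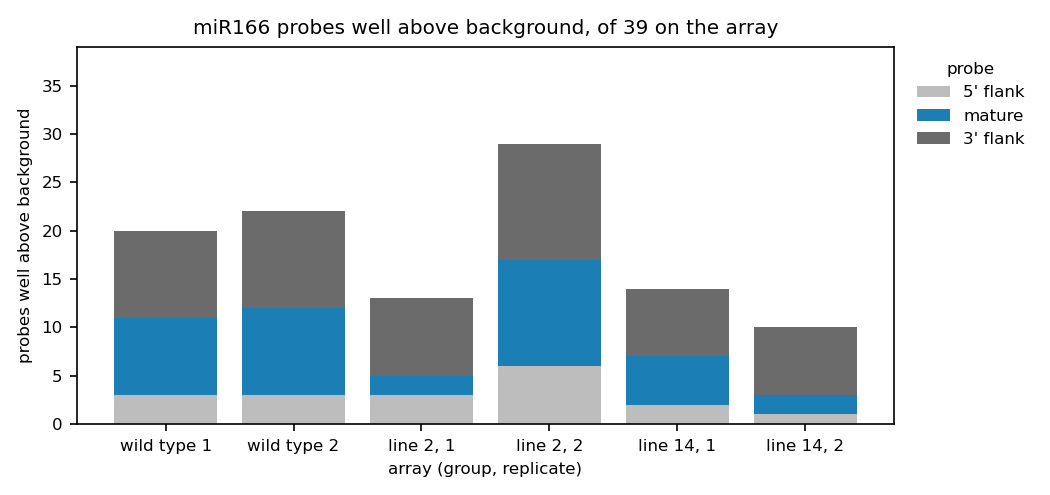
Number of miR166 probes well above background (vertical axis, of 39) on each array, divided into 5' flank, mature and 3' flank probes. Line 2 replicate 2 reaches 29 and line 14 replicate 2 reaches 10, with the wild-type arrays at 20 and 22.

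Among the probes that passed, most read lower in the lines, and none was called. In limma, 0 of 19 were called in both lines against wild type, where 0.144% of all features were called. At an unadjusted p under 0.05, 2 of 19 were lower, the mature probes of miR166l and miR166m, and 0 higher, where 4% of all features were lower and 3.88% higher. The median log2 difference was -0.42, with 17 of 19 lower, against 0.00 and 49.8% lower over all features and -0.17 with 45 of 79 lower for other microRNA probes. The 19 probes come from 9 hairpins, and a mature probe may read several of them, so the 19 are not independent. Leaving out 1 array moved the median to -0.81 without wild-type replicate 1 and to -0.20 without wild-type replicate 2. Of the 19, 7 passed the filter through wild type alone and 1 through line 2 alone, so the filter favoured probes bright in wild type. All 7 were mature probes, of miR166b, miR166c, miR166f, miR166k, miR166l, miR166m and miR166n, and the fitted differences and p-values of these 7 support nothing about the lines. Over all 39 probes, with no filter, the median was -0.19, and 26 of 39 read lower. Among all probes of the array 46.0% read lower, and among the 471 other microRNA probes 48.4%. By line, 28 of 39 were lower in line 2 and 23 of 39 in line 14. Of the 471 others, 85.6% were lower in line 2 and 28.5% in line 14. Over the 6 seen on every array the median for both lines was -0.55, with 5 of 6 lower. It was 0.03 for the 48 other microRNA probes and 0.02 for all probes seen on every array, with 47.9% and 48.3% lower. The 6 differences depended on the wild-type arrays. Without wild-type replicate 2, the 3' flanks gave 0.44 at miR166a, -0.07 at miR166b, -0.32 at miR166l, -0.31 at miR166m and 0.43 at miR166n. The miR166l 5' flank gave -0.19. Without wild-type replicate 1, the 6 ranged from -1.58 to -0.43. The direction of the median over the 19 was the same under every scaling tried. Its size ranged from -0.15 after normexp with quantile normalization to -0.44 in the authors' deposited values. As the filter favoured probes bright in wild type, this direction supports nothing about the lines by itself.

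The hairpin miR166l gave signal at all 3 of its probes. Its 3' flank read -4.35 and -3.17 in wild type, -4.62 and -4.46 in line 2, and -4.28 and -5.32 in line 14. Wild-type replicate 2 stood highest, and wild-type replicate 1 lay within the range of the lines. The difference of the lines was -0.91 (SE 0.48, 95% confidence interval -2.11 to 0.30, limma adjusted p = 0.753), and -0.32 without wild-type replicate 2. Its 5' flank read -4.70 and -3.86 in wild type, -4.97 and -4.59 in line 2, and -4.63 and -5.36 in line 14. The highest and the lowest array were those of the 3' flank, and the groups again overlapped. The difference was -0.61 (SE 0.39, limma adjusted p = 0.806), and -0.19 without wild-type replicate 2.

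The mature probe of miR166l did not overlap between wild type and the lines. It read -6.23 and -5.47 in wild type, -7.54 and -6.62 in line 2, and -7.66 in line 14 replicate 2 and -6.88 in line 14 replicate 1. Both wild-type arrays and 1 of the 2 arrays of each line read it well above background. It is one of the 7 probes that passed through wild type alone. The fitted difference was -1.32 (SE 0.44, limma adjusted p = 0.537). Line 2 alone gave -1.23, with a limma adjusted p of 0.798, and line 14 alone gave -1.41, with one of 0.657. Leaving out wild-type replicate 2 brought the value for both lines to -0.94. Normexp with quantile normalization brought it to -0.51.

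miR166m resembled miR166l at the 3' flank and not at the 5' flank. The 3' flank of miR166m read -5.13 and -3.86 in wild type, -5.32 and -5.32 in line 2, and -5.08 and -6.06 in line 14. Wild-type replicate 2 was again the highest array and line 14 replicate 2 the lowest. The difference was -0.95 (SE 0.48, 95% confidence interval -2.16 to 0.27, limma adjusted p = 0.737), and -0.31 without wild-type replicate 2. The 5' flank read -7.04 and -6.87 in wild type, -7.19 and -6.94 in line 2, and -6.58 and -6.77 in line 14, with a difference of 0.08 (SE 0.25, limma adjusted p = 0.970).

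The mature probe of miR166m read -7.75 and -7.65 in wild type, -8.95 and -8.50 in line 2, and -8.43 and -8.44 in line 14. All line arrays read below the wild-type arrays, which were close together. The probe was well above background on 3 arrays, neither of line 14, and so is also among the 7. The lowest signal counted as above background on the line 14 arrays, a mean of -7.59, was above the wild-type mean of -7.70. The arrays therefore set no fold for line 14 at this probe, and whether line 14 lay below wild type was not measured. The fit, which takes all values as read, gave -0.88 for both lines (limma adjusted p = 0.459), and -0.29 after normexp with quantile normalization and -1.23 in the authors' deposited table.

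**Figure D4:**
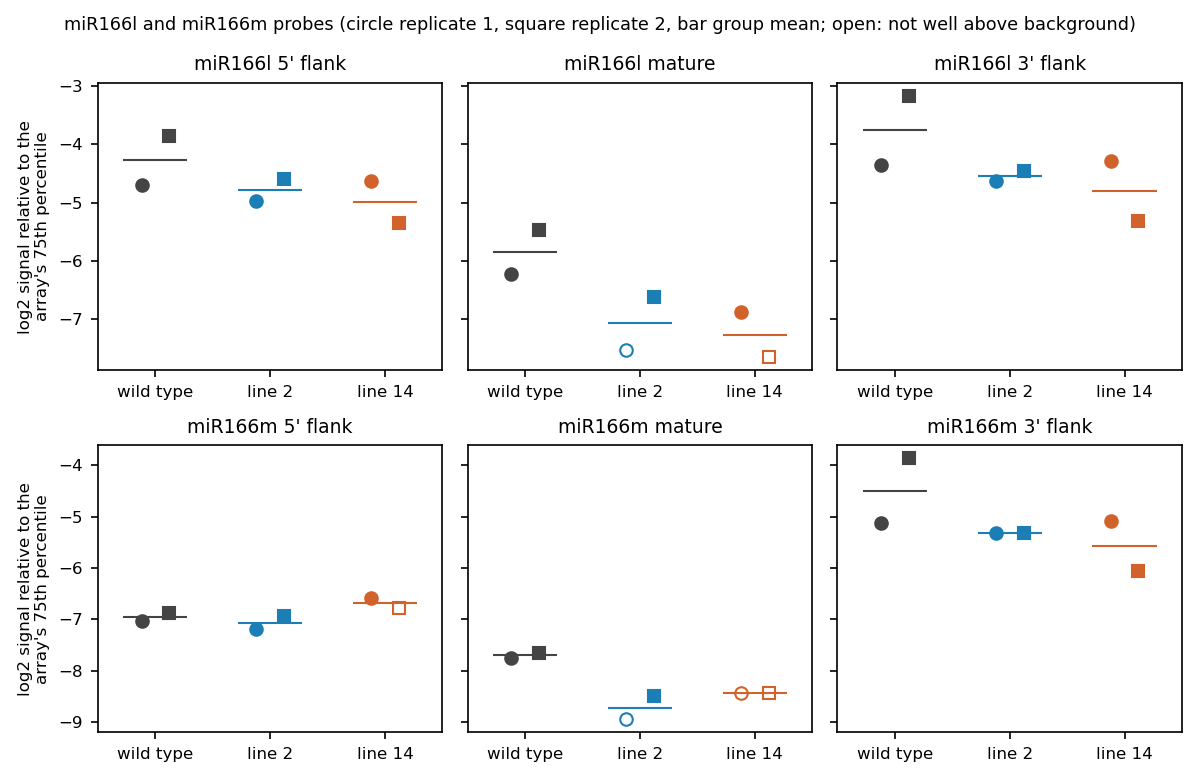
Log2 signal, with each array's 75th percentile at 0, (vertical axis) of the 5' flank, mature and 3' flank probes of miR166l (top) and miR166m (bottom) in the 3 groups. Circles are replicate 1, squares replicate 2, bars group means, and open points were not well above background. The wild-type points of both mature probes lie above all line points, while the 3' flanks overlap.

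Among the probes that passed, the mature probe of miR166k was the other without overlap between wild type and the lines, and it too passed through wild type alone. It read -6.41 and -5.99 in wild type, -7.51 and -7.05 in line 2, and -6.58 and -7.61 in line 14. The value of line 14 replicate 2 was the mean of 2 spots, at -6.63 and -8.59. The probe stood well above background in wild type on both arrays, and on 1 array of each line. The fitted difference was -0.99 (SE 0.39, limma adjusted p = 0.634), and -0.45 after normexp with quantile normalization. Its 3' flank read -6.07 and -5.14 in wild type, -6.70 and -5.49 in line 2, and -6.13 and -7.17 in line 14, so the groups overlapped. Its difference of -0.77 (limma adjusted p = 0.832) was -0.30 without wild-type replicate 2. Altogether all 4 line arrays lay below both wild-type arrays at 3 of the 19 probes that passed and above them at 0, where 8.84% of all features lay below and 7.66% above, and 8.86% and 7.59% of the other microRNA probes tested. Without the filter the counts were 5 of 39 below and 2 of 39 above, where 6.99% and 7.65% of all probes were. Of every other microRNA probe, 2.76% lay below. All 3 of those that passed and lay below are among the 7 that passed through wild type alone, so the count over the 19 supports nothing by itself. The mature probe of miR166e, one of the 5 without the filter, was well above background on 0 arrays.

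The mature probes of miR166a, miR166c, miR166d, miR166f and miR166n read between -7.69 and -6.14, with fitted differences of the lines from -0.37 at miR166n to -0.06 at miR166a. That of miR166a read -6.75 and -6.83 in wild type, -6.85 and -7.02 in line 2, and -6.66 and -6.87 in line 14. That of miR166c read -6.74 and -6.83 in wild type, -7.00 and -7.37 in line 2, and -6.71 and -6.67 in line 14. At both, the line 2 arrays lay below the wild-type arrays, and at least 1 line 14 array lay above them. In line 14 replicate 1 the 2 spots of miR166a read -5.89 and -7.42, and those of miR166c -7.42 and -6.01. That of miR166d read -6.98 and -6.49 in wild type, -7.00 and -6.94 in line 2, and -7.69 and -6.14 in line 14. Its line 14 arrays were the lowest and the highest of the 6. The lowest, replicate 1, was the mean of 2 spots, at -6.87 and -8.51. That of miR166f read -6.71 and -6.87 in wild type, -7.31 and -7.41 in line 2, and -6.59 and -6.77 in line 14. That of miR166n read -6.78 and -6.48 in wild type, -7.21 and -7.18 in line 2, and -6.85 and -6.77 in line 14. At both of these, too, line 2 lay below wild type, and line 14 overlapped it. The mature probes of miR166c, miR166f and miR166n passed the filter through wild type alone. Line 2 replicate 1 did not read them well above background. The share of all features with line 2 wholly below wild type was not counted, so this order supports nothing about line 2.

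The mature probes of miR166e, miR166g, miR166h and miR166i did not pass, and their values lie mostly in the background. That of miR166e read -7.41 and -8.49 in wild type, -9.05 and -8.60 in line 2, and -8.52 and -8.67 in line 14. That of miR166g read -7.41 and -8.52 in wild type, -8.48 and -7.88 in line 2, and -7.67 and -7.90 in line 14. Neither was well above background in wild type, and miR166g was so only in line 2 replicate 2. That of miR166h read -7.17 and -7.98 in wild type, -8.44 and -7.73 in line 2, and -7.48 and -8.23 in line 14. That of miR166i read -9.28 and -9.79 in wild type, -9.26 and -10.65 in line 2, and -8.67 and -8.78 in line 14. Of this pair, miR166h was well above background in line 2 replicate 2 alone and miR166i on 0 arrays.

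The mature probe of miR166b read -5.83 and -7.15 in wild type, -7.18 and -7.39 in line 2, and -7.51 and -7.07 in line 14. Only wild-type replicate 1 stood apart, and the difference of -0.80 (limma adjusted p = 0.764) was -0.14 without it. In line 14 neither array read it well above background, and its wild-type mean of -6.49 was at least 1.74-fold above the mean of -7.29 there. For such a bound the dim group is placed, array by array, at its measured signal or at the array's lowest signal marked above background, whichever is greater. Here the measured signals were the greater, so the bound equals the measured fold. The miR166b mature probe passed the filter through wild type alone, so the bound supports nothing about line 14. The line 14 difference at this probe had a limma adjusted p of 0.852.

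The 3' flanks of miR166a, miR166b and miR166n completed the probes seen on every array. The 3' flank of miR166a read -6.85 and -5.60 in wild type, -7.05 and -6.10 in line 2, and -5.80 and -6.71 in line 14. That of miR166b read -5.91 and -5.09 in wild type, -6.14 and -5.86 in line 2, and -5.76 and -6.18 in line 14. At both, wild-type replicate 2 was the highest array and replicate 1 lay among the lines. That of miR166n read -6.36 and -5.50 in wild type, -6.04 and -5.55 in line 2, and -6.16 and -5.98 in line 14, with the lines inside the wild-type range. Their differences were -0.19, -0.48 and 0.00, with limma adjusted p of 0.968, 0.834 and 0.9998. The value of miR166b was -0.07 without wild-type replicate 2 and -0.89 without wild-type replicate 1.

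**Figure D5:**
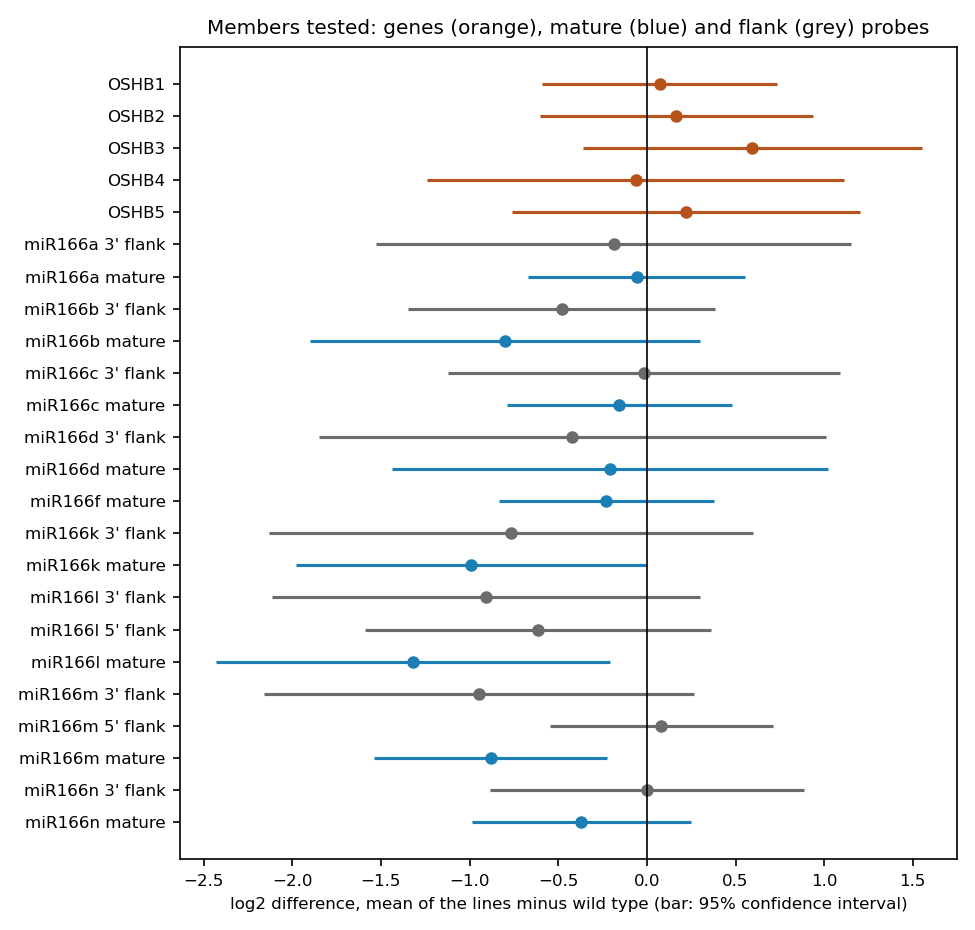
Fitted log2 difference of the mean of the lines from wild type (horizontal axis) with its 95% confidence interval for the 5 loci and the 19 miR166 probes tested. The intervals that do not reach 0 are those of the miR166l and miR166m mature probes, both of which passed the filter through wild type alone, and the line 14 values of miR166m were not well above background.

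The comparisons of each line with wild type share the wild-type arrays. In line 2, 17 of 19 probes read lower than wild type, with a median of -0.50, where 49.3% of all features read lower. Limma called 0 of 19 there, where 0.0224% of all features were called, and the miR166m mature probe alone had an unadjusted p under 0.05, as 6.4% of all features did. In line 14, 15 of 19 read lower, with a median of -0.43, where 49.1% of all features read lower. Limma called 0 of 19 there, where 0.0404% of all features were called, and the miR166l mature probe alone had an unadjusted p under 0.05, as 7.12% of all features did. Among the mature probes tested, 9 of 9 were lower in line 2, with a median of -0.57, and 6 of 9 in line 14, with a median of -0.18. Of these 9, 7 passed the filter through wild type alone, those of miR166l and miR166m included. The counts over the 9 and those unadjusted p-values therefore support nothing about the lines. The counts and medians of the 19 against wild type, which hold these 7, support nothing by themselves either. Among other microRNA probes tested, 54 of 79 were lower in line 2 and 44 of 79 in line 14. The comparison of line 14 with line 2 called 0 of 19 in limma, where 0% of all features were called, and 0 of 19 had an unadjusted p under 0.05, where 3.46% did. Its median was 0.03 over the 19, with 9 lower, and 0.18 over the mature probes tested, with 2 of 9 lower, where 49.6% of all features read lower.

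Set side by side, the highest and the lowest arrays of both sets were counted. Line 14 replicate 2 was the highest array at all 5 class III HD-ZIP loci and the lowest at 8 of the 19 miR166 probes, while it was the highest at 2, the mature probes of miR166c and miR166d. Wild-type replicate 2 was the highest array at 12 of the 19 miR166 probes and the lowest at 3 of the 5 loci, OSHB1, OSHB3 and OSHB5. Of all features tested, line 14 replicate 2 was the highest in 13.8% and the lowest in 12.6%, and wild-type replicate 2 the highest in 17.3% and the lowest in 16.6%. OSHB4 was lowest in line 14 replicate 1. That array was the highest at 3 of the 19 miR166 probes and the lowest at 2, the mature probes of miR166b and miR166d. OSHB2 was lowest in line 2 replicate 1, which was the highest at 1 of the 19 and the lowest at 4. This order was read off after the values were seen and carries no test. The 19 miR166 probes, from 9 hairpins, are not independent. Of the 19, 7 mature probes passed the filter through wild type alone, so the filter favoured a wild-type array as the highest. Those of miR166k, miR166l, miR166m and miR166n are among these 7 and were highest in wild-type replicate 2. The counts over the 19 therefore support nothing about the lines by themselves. The group means of neither set were called different.

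Over the 6 arrays, the feature most like the 3' flank of miR166l, among 19397 others well above background throughout, was the 3' flank of miR166m (Pearson's r = 0.996), and the next was Os11g0118000 (r = 0.986). Whether these flank probes share sequence was not tested. For the class III HD-ZIP loci the most alike features were Os07g0235800 for OSHB1 (r = 0.979), Os01g0740600 for OSHB2 (r = 0.992), Os12g0102200 for OSHB3 (r = 0.987), Os01g0838100 for OSHB4 (r = 0.994) and Os01g0673600 for OSHB5 (r = 0.988). No class III HD-ZIP locus was among the 2 features most like another. With 6 arrays and so many features, values this high describe these arrays and single out no partner, as 16 to 39 features had r above 0.95 with each of these loci.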

How the data were processed

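Agilent arrays (design 15241) were labelled in 1 colour and read with Feature Extraction 10.7.3.1, per the file headers. The deposited intensity is background-subtracted array by array, with no scaling between arrays. Other deposited columns mark each spot's quality with 0 or 1. A table of values deposited by the authors holds log2 numbers (median 10.4, r at least 0.998 with the log2 spot signal on each array); how they were normalized is unknown here.

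Of 45151 spots, 1417 controls were left out, as were 48 further rice control probes and outlier spots (0.0983% to 0.183% per array). Each spot's log2 intensity was set relative to the 75th percentile of its array, and a probe's spots were averaged. All 6 arrays entered 1 limma 3.58.1 fit (R 4.3.3; a mean per group, empirical Bayes, 3 residual and 2.36 prior degrees of freedom), with Benjamini-Hochberg adjustment over 22283 features at 0.05. The fit was tested on simulated data. Figures used matplotlib 3.10.9. The labels name independent biological samples; precision is limited by their number.

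The members and lists were chosen with earlier results of these data known. Every member is accounted for; loci, mature probes and probes seen on all arrays are given by array. OSHB names came with the list of members and could not be checked by ID, since the reference gene table matched 0 of the locus IDs. For the same reason lists of microRNA machinery, class IV HD-ZIP, KANADI and tissue marker genes could not be formed. Alternatives covered background correction, scaling, the authors' table, the filter, single probes, an intensity trend, array weights, replicate or slide blocks, the arrays fitted, the threshold and each array left out. Normexp was run on median spot signals, as no column of means was at hand, with an offset of 50.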

Additional observations from a re-analysis of the deposited data

Results flagged for a closer look

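At 2 mature probes both arrays of line 2 lay below the wild-type mean and both arrays of line 14 above it. Both probes passed the filter on dim signal through wild type alone, so the pattern supports nothing about the lines. Neither was well above background in line 2 replicate 1 or line 14 replicate 2. The share of all features with this pattern was not counted. The miR166c mature probe was lower in both line 2 arrays, by -0.22 and -0.58, and higher in both line 14 arrays, by 0.07 and 0.11, on the log2 scale. Line 14 minus line 2 was 0.49 (95% confidence interval -0.24 to 1.22, limma adjusted p = 0.9999). The line 14 replicate 1 value of miR166c was the mean of 2 spots, at -7.42 and -6.01. The miR166f mature probe was lower in line 2, by -0.51 and -0.62, and higher in line 14, by 0.20 and 0.02, and line 14 minus line 2 was 0.68 (95% confidence interval -0.03 to 1.38, limma adjusted p = 0.9999). Line 14 was alone on its slide, so line and slide cannot be told apart. The SD of the wild-type arrays was 0.06 and 0.12 at these probes.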

How the results depend on the processing

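Under every alternative run, 0 of the 19 miR166 probes and 0 of the 5 class III HD-ZIP loci were called in any comparison, in 144 recomputed counts, and the lowest limma adjusted p of a member was 0.177. With replicate number as a block the counts were also 0 and the median miR166 difference stayed at -0.42; the labels do not say that the numbers pair samples, and replicate differences of the groups correlated at 0.02 to 0.08. Slide as a block can be fitted for line 2 alone. Directions of small differences turned. OSHB1 became -0.053 after normexp with quantile normalization, and OSHB4 0.014 after median scaling, which moved the median of all features by up to 0.12 in line 14. The miR166a mature probe became 0.032 after normexp with quantile normalization, 0.020 after median scaling and 0.24 in the authors' deposited table; the miR166c 3' flank became 0.013, 0.062 and 0.021 under these and 0.026 after quantile normalization. The cause was not tested. With 1 array left out in turn, differences ranged from -0.076 to 0.22 at OSHB1, -0.012 to 0.35 at OSHB2, -0.43 to 0.30 at OSHB4 and -0.052 to 0.49 at OSHB5. They ranged from -0.81 to 0.44 at the miR166a 3' flank, -0.35 to 0.32 at the miR166c 3' flank, -1.04 to 0.20 at the miR166d 3' flank, -0.59 to 0.18 at the miR166d mature probe, -0.00051 to 0.17 at the miR166m 5' flank and -0.43 to 0.43 at the miR166n 3' flank. The other 13 members kept their sign in all runs. They include the 7 mature probes that passed the filter through wild type alone, whose sign supports nothing about the lines. The median of the 19 miR166 probes ranged from -0.81 without wild-type replicate 1 to -0.20 without wild-type replicate 2, and that of the 5 loci from -0.02 without line 14 replicate 2 to 0.35 without line 14 replicate 1. Such fits leave 1 group with 1 array, assumed to vary like the others. Dim signal limits the miR166 values, since 33 of 39 probes missed the background mark on at least 1 array.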
